A study of Rattus norvegicus with 8 samples.

Results

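The comparison described here set fear-conditioned rats in which status epilepticus had been induced against fear-conditioned rats that had not been stimulated. It rests on 4 of the 8 arrays of the series, 2 labelled epileptogenic paired and 2 labelled control paired, and the other 4 arrays (control unpaired and epileptogenic unpaired) entered the estimate of the spread. Epileptogenic rats had the amygdala stimulated electrically until status epilepticus, were kept only if they had at least 40 HAFDs (an abbreviation that the labels do not spell out) in its first 3 h, and showed no spontaneous seizures during the study. Control rats were operated in the same way and received no stimulation. All rats had 5 habituation sessions of 10 min in the training box from day 5, and on day 8 they were trained in 2 trials. Each trial began with 2 min in the box and used a 75 dB tone of 20 s and a 1.5 mA shock to the feet of 1 s. In paired training the tone ended together with the shock, and in unpaired training the shock came before the tone. Tissue was taken 3 h later, so the rats of every group had been shocked and had heard the tone. The strain, sex and age of the rats are not given in the sources used here. The lateral and basal nuclei on the operated side were cut out by laser microdissection, 30 ng of RNA per rat went through 2 rounds of amplification, and each array held the pooled RNA of 2 of the 4 rats of a group. In each group 1 array is lettered A and the other B, and they are called biological replicates, so p-values measure the spread between pools of 2 rats.

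Status epilepticus is a seizure that does not stop by itself and that can start epileptogenesis, the process by which a brain becomes prone to spontaneous seizures. In that period microglia, the resident phagocytes of the brain, and astrocytes, which regulate ions and transmitters around synapses, become reactive, and synapses and ion channels of neurons are remodelled. The lateral and basal nuclei are the part of the amygdala in which a tone becomes associated with a shock during fear conditioning. Their principal cells are glutamatergic projection neurons, and local GABAergic interneurons restrain them.

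The tissue label was set against markers of its cells. Of 12 genes listed for amygdala projection neurons 10 were above the filter on dim probe sets, among them Etv1, Mef2c, Neurod6, Lmo3 and Slc17a6. Tbr1 lay under it, and Rspo2 had no probe set with a single gene symbol. The filter does not tell tissues apart. Above it also lay 14 of 19 striatal and central amygdala, 9 of 15 choroid plexus and ependymal, and 11 of 15 meningeal and fibroblast markers. Ppp1r1b is in the projection neuron list and in the striatal list. Median signals of the arrays ran from 29 to 43.2 intensity units, and Pearson correlations of log2 signals between arrays ran from 0.850 to 0.925. Choroid plexus, meningeal, striatal and blood markers varied between arrays, and their values are given beside the results they touch.

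After paired training, genes of microglia, complement, lysosomes and the interferon response were higher in epileptogenic than in control rats, and Gfap, the intermediate filament of astrocytes, was 8.72-fold higher. A smaller number of genes was lower, among them Nrarp, a negative regulator of Notch signalling, the thyrotropin-releasing hormone receptor gene Trhr, the calretinin gene Calb2 and the serotonin receptor gene Htr2c. Of 10364 named genes tested with limma, 584 (5.63%) passed at an adjusted p under 0.05, of which 460 (4.44%) were higher and 124 (1.2%) lower. Over all 18625 probe sets, named or not, 860 (4.62%) passed, 642 higher (3.45%) and 218 lower (1.17%). The higher genes had a median log2 difference of 1.52 and the lower genes one of -1.03, against a median over all genes of -0.04. Log2 differences above 2 were found for 105 higher genes, and 7 lower genes had a difference below -2.

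These counts rest on the model of the spread. All 584 genes differed in the same direction between the A arrays as between the B arrays. Passing in a fit with the letter makes this likely, so it is no separate support. In 564 of the 584 genes the 2 epileptogenic arrays did not overlap the 2 control arrays. Of all tested genes 2002 (19.3%) had epileptogenic arrays above both control arrays and 2215 (21.4%) had them below both, so a lack of overlap alone was common. Without the letter in the model 69 genes passed, all of them among the 584. Without the dependence of the spread on signal level no probe set passed in limma, with a smallest adjusted p of 0.0526 and 3210 probe sets at an unadjusted p under 0.05, against 3729 with it. Leaving out single arrays moved the counts most for epileptogenic paired A, without which 70 genes were higher and 3 lower, and for control paired A, without which 133 were higher and 3 lower. They were 230 and 81 without epileptogenic paired B, 249 and 30 without control paired B, and the lower count was 50 without control unpaired A and 51 without control unpaired B. In total 67 genes passed in all 8 fits with an array left out, 66 of them higher, and the lower gene was Htr2c. Every value below is a log2 difference with its standard error (SE) from the fit, or a log2 signal of a single array, and where an array is left out its partner is assumed to vary like the other groups.

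The 12 largest increases among genes above the filter level in both groups included interferon-induced genes, Fc receptors and Gfap. Rsad2 (probe set 1370913_at) encodes viperin, an antiviral enzyme induced by interferon. Its log2 signals were 5.36 and 6.06 in control paired A and B and 9.32 and 9.77 in epileptogenic paired A and B, so the groups lay far apart. The difference was 3.84 ± 0.30 (SE, n = 2 and 2 arrays; adjusted p = 0.000608), a 14.3-fold higher signal. Ifgga2l1 (1373992_at), a member of a family of GTPases induced by interferon, went from 5.64 and 6.08 to 9.33 and 9.47, and the control and epileptogenic arrays were each close to one another. It rose by 3.54 ± 0.23 (adjusted p = 0.000448). Ptprc (1390798_at), the CD45 phosphatase of all leukocytes including microglia, was at 5.76 and 7.77 in control arrays and at 8.96 and 10.95 in epileptogenic arrays, with the B array higher than the A array in each group. Within each letter it was 3.19 higher, and the fitted difference was 3.19 ± 0.31 (adjusted p = 0.00104).

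Several of these genes had 1 very low control array. Scn7a (1370973_at), an atypical sodium channel that senses sodium in glia, had the largest difference in this set. Its log2 signals were 2.66 in control paired A, 6.43 in control paired B, and 8.84 and 9.10 in the epileptogenic arrays. The difference was 4.42 ± 0.76 (adjusted p = 0.0116) and fell to 2.58 without control paired A, and the call was lost without epileptogenic paired A. Serping1 (1372254_at), the inhibitor of the first complement component, had the same shape, with 3.56 and 6.15 in control arrays and 8.75 and 8.76 in epileptogenic arrays. It rose by 3.90 ± 0.61 (adjusted p = 0.0076), by 2.47 without control paired A, and did not pass without epileptogenic paired A. Fcgr2b, the inhibitory Fc receptor of phagocytes, rose by 3.67 ± 0.44 and Fcrl2, an Fc receptor-like gene, by 3.55 ± 0.35. Clec4a3, a C-type lectin of myeloid cells, rose by 3.26 ± 0.54, and Mx2, an interferon-induced GTPase, by 3.22 ± 0.59. Fcgr2b lost its call without epileptogenic paired A, and Clec4a3 and Mx2 lost theirs without control paired A, control paired B or epileptogenic paired A, with Mx2 at 2.06 in the last case. A second probe set of Mx2 gave 1.69 and did not pass (adjusted p = 0.0516). RGD1309362 rose by 3.11 ± 0.39 and Cd244l1 by 2.93 ± 0.30, and both passed with any array left out, as did Fcrl2.

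**Figure D1:**
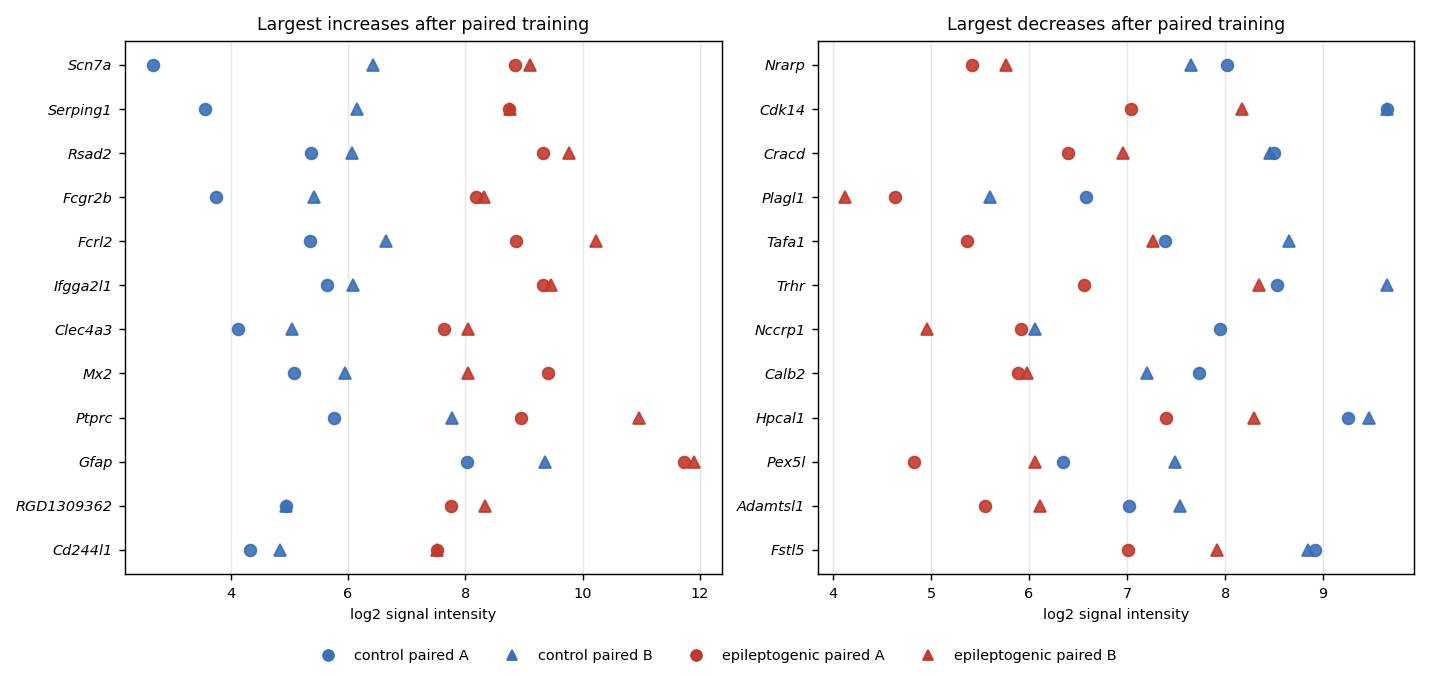
Log2 signal intensity (horizontal axes) of the 12 largest increases (left) and the 12 largest decreases (right), 1 row per gene. Control paired arrays are blue and epileptogenic paired arrays red, with A as circles and B as triangles. Genes were chosen among those that passed, whose groups did not overlap and whose means in both groups lay above the filter level. The lack of overlap is therefore a condition of the choice. Scn7a and Serping1 have a control paired A array far below control paired B.

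Decreases were smaller than increases. Nrarp (1382138_at) had log2 signals of 8.01 and 7.65 in control arrays and of 5.41 and 5.77 in epileptogenic arrays. It fell, with a difference of -2.24 ± 0.29 (adjusted p = 0.00344), which is 4.73-fold lower. Cdk14 (1374747_at), a cyclin-dependent kinase, was at 9.65 in each control array and at 7.03 and 8.17 in the epileptogenic arrays, a difference of -2.05 ± 0.29 (adjusted p = 0.00484). Trhr (1369751_at) was at 8.53 and 9.65 in control arrays and at 6.56 and 8.34 in epileptogenic arrays. Its groups were separated by a narrow gap, yet within each letter the difference was large (-1.97 in A and -1.31 in B), and the fit gave -1.64 ± 0.25 (adjusted p = 0.00662). Without the letter in the model the adjusted p of Trhr was 0.393. Calb2 (1387133_at), the calcium-binding protein calretinin of a class of interneurons, fell from 7.74 and 7.20 to 5.89 and 5.98, a difference of -1.53 ± 0.27 (adjusted p = 0.0138).

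The other genes of this set had roles in signalling, the cytoskeleton and secretion. Cracd, a regulator of actin capping, fell by 1.80, the zinc finger gene Plagl1 by 1.71, Tafa1, a secreted chemokine-like protein of neurons, by 1.70, and Nccrp1 by 1.56 on the log2 scale. The differences were -1.51 for Hpcal1, a neuronal calcium sensor, -1.48 for Pex5l, an accessory subunit of HCN channels, -1.45 for Adamtsl1, a secreted matrix protein, and -1.42 for the follistatin-like gene Fstl5. None of these 12 decreases kept its call without epileptogenic paired A or without control paired A. Their differences kept their sign in every such fit, from -2.57 to -1.52 for Cdk14 and from -1.51 to -1.40 for Adamtsl1. Plagl1 lost its call also without either control unpaired array, without control paired B and without epileptogenic paired B.

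Larger ratios were seen where the mean of 1 group was below the threshold used to drop dim probe sets (log2 4.35, a signal of 20.3), so that their size depends on very dim signals. Ddx60 (1381556_at), an interferon-induced helicase, had log2 signals of -0.19 and 2.93 in control arrays and of 6.12 and 7.49 in epileptogenic arrays. The difference was 5.44 ± 0.71 (adjusted p = 0.00337). Cd68 (1375010_at), a lysosomal protein of macrophages, was at 0.70 and 4.62 in control and at 7.88 and 7.82 in epileptogenic arrays, a difference of 5.19 ± 0.80 that was 3.28 without control paired A. Hspb1, a small heat shock protein of reactive astrocytes, rose by 4.65 ± 0.62. These 3 genes lost their call without epileptogenic paired A. Sp100, a nuclear body protein induced by interferon, rose by 4.44 ± 0.90, and by 2.85 without control paired B, where it did not pass. It did not pass without either epileptogenic paired array. On the lower side Ngb (1387208_at), the oxygen-binding neuroglobin of neurons, was at 7.33 and 5.99 in control and at 2.76 and 3.33 in epileptogenic arrays, a difference of -3.62 ± 0.51 (adjusted p = 0.00485). Myo16, an unconventional myosin, had -3.37 ± 0.63, Plekha4 -3.16 ± 0.62 and Dpf1, a chromatin remodelling subunit of neurons, -2.29 ± 0.48. The 4 lower genes did not pass without control paired A or epileptogenic paired A, and among the 584 the lower group lay under the filter level for 32 higher and 5 lower genes.

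Microglia and macrophage genes moved together. Of 31 listed genes 28 had a probe set and 24 were tested. All but 3 of these rose (21 higher and 0 lower, 87.5%), with a median log2 difference of 2.04. The 3 that did not pass were Cx3cr1, the fractalkine receptor (-0.69), Tmem119, a marker of resident microglia (0.96), and Lyz2, lysozyme (1.03). Fcer1g (1373575_at), the signalling chain of activating Fc receptors, had log2 signals of 7.28 and 7.73 in control arrays and of 9.99 and 10.24 in epileptogenic arrays. The difference was 2.61 ± 0.18 (adjusted p = 0.000448), with little spread within either group. Aif1, which encodes the microglial marker Iba1, rose by 2.59, Trem2, a lipid receptor of microglia, by 2.38, Csf1r, the receptor that keeps microglia alive, by 1.94, and P2ry12, a purine receptor of resting microglia, by 1.98. The summed signal of the 24 genes was 2271 and 3272 intensity units in control arrays and 10885 and 12540 in epileptogenic arrays. In tissue RNA a larger number of microglia and more RNA per cell cannot be told apart. Cd68 and Trem2 had control means under the filter level. The count was 12 without control paired A, 8 without epileptogenic paired A, 14 without epileptogenic paired B and 8 without the letter.

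Complement genes followed the same direction. The system tags debris and synapses for phagocytes. Of 9 tested genes 7 rose and 0 fell, with a median of 1.89. C1qa (1376652_at), a chain of the recognition molecule C1q, was at 8.11 and 8.44 in control and at 10.38 and 10.08 in epileptogenic arrays, and rose by 1.96 ± 0.22 (adjusted p = 0.00163). C1qc, another chain, rose by 1.96 ± 0.32, C1s, a protease of the first component, by 2.17 ± 0.40, and Serping1 is given above. Cd55, which protects cells from complement, had -0.53 and did not pass. C1s was at 1.34 without control paired A. The count was 2 without control paired A, 1 without epileptogenic paired A, 3 without epileptogenic paired B and 2 without the letter.

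Lysosomal genes and genes of antigen presentation rose to different extents. Of 17 lysosomal genes 12 rose and 0 fell, with a median of 1.31, and all 17 had a positive difference. Grn (1386893_at), the lysosomal glycoprotein progranulin, was at 7.17 and 8.08 in control and at 10.26 and 10.01 in epileptogenic arrays and rose by 2.51 ± 0.25 (adjusted p = 0.00104). Laptm5, a lysosomal membrane protein of leukocytes that is also in the microglia list, rose by 2.50 ± 0.21 (1.49 by its other probe set), Ctsz, cathepsin Z, by 2.33 ± 0.33, and Ctsd, cathepsin D, by 2.03 ± 0.21. The lysosomal count was 7 without control paired A, 8 without control paired B, 6 without epileptogenic paired A and 6 without the letter. Of 13 genes of antigen presentation 3 rose and 0 fell, with a median of 1.52. B2m (1367595_s_at), the constant chain of class I molecules, went from 9.60 and 9.79 to 11.48 and 11.27, a rise of 1.68 ± 0.16 (adjusted p = 0.00104), and its other tested probe set rose by 1.58. Ctss, cathepsin S, which prepares class II molecules for loading, rose by 2.54 ± 0.27, and RT1-DMb, a chain of the class II loading factor, by 1.36 ± 0.29. The call of RT1-DMb was lost without either control unpaired array and without any of the 4 paired arrays. Cd74, the invariant chain of class II, was at 5.21 and 6.69 in control and at 7.41 and 8.04 in epileptogenic arrays. Its groups did not overlap, but the difference of 1.78 ± 0.73 did not pass (adjusted p = 0.209).

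Genes of the interferon response are switched on by transcription factors that bind a promoter element in which GAAA occurs as a pair with a spacer. Of 21 tested genes 12 rose and 0 fell, with a median of 1.35. The 12 were Ddx60, Rsad2, Mx2, Mx1, Ifit2, Usp18, Gbp2, Psmb8, Irf7, Irf9, Stat2 and Ifi27. Mx1 (1371015_at), an interferon-induced GTPase, was at 4.25 and 4.07 in control and at 6.64 and 6.44 in epileptogenic arrays, a rise of 2.38 ± 0.37 (adjusted p = 0.00807). The control means of Mx1 and Ddx60 lay under the filter level, so these genes were tested through their epileptogenic signal. Gbp2, a guanylate-binding protein, rose by 1.99 and Psmb8, a subunit of the immunoproteasome, by 1.60. Oasl had -0.10 and was the only member with a negative difference. The count was 4 without control paired A, 7 without control paired B, 2 without epileptogenic paired A, 7 without epileptogenic paired B and 3 without the letter.

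The promoters of the 12 higher genes were searched for the letters GAAANNGAAA on both strands. The RefSeq windows (assembly GRCr8) ran from 250 bases before to 50 bases after each gene's start. Of the 12 genes 9 were in the promoter table, and 6 of them (Ddx60, Rsad2, Gbp2, Psmb8, Irf7 and Ifi27) held a match, where 1034 of 27457 promoters (3.77%) did. The list was made of interferon response genes, so a share above that of all promoters follows from its choice and is no separate support. Members of the list that did not pass were not searched, so a tie between the match and the rise was not tested. The 4 with the largest differences are printed with the match in capitals, 5′ to 3′ on the strand of the gene, to show where the letters stand. Ddx60 holds 2 matches, at -73 and -39 from its start (chr16:33208790-33209089, minus strand), and Rsad2 holds 1 at -147 on the opposite strand (chr6:48788071-48788370, minus strand). Gbp2 has its match at -31 (chr2:234005477-234005776, plus strand) and Psmb8 at -4 (chr20:4656982-4657281, minus strand), each on the opposite strand. A match is a description of the letters and not a binding site shown by these data.
Ddx60: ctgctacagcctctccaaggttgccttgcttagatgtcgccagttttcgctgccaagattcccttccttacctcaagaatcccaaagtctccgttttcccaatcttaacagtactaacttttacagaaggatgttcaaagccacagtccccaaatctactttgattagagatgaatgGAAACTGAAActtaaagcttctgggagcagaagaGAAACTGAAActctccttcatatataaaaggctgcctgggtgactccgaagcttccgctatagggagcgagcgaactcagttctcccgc
Rsad2: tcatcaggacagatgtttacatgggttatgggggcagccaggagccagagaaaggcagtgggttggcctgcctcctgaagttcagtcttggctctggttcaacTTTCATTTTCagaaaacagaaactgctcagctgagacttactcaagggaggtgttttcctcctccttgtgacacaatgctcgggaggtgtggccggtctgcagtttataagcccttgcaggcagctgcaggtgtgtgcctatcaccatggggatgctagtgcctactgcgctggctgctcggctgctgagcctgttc
Gbp2: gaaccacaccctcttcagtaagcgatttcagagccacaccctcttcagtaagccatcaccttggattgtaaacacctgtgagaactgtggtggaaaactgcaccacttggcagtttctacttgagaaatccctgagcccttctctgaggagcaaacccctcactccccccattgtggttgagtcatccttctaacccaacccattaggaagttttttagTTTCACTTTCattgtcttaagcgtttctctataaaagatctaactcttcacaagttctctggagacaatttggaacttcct
Psmb8: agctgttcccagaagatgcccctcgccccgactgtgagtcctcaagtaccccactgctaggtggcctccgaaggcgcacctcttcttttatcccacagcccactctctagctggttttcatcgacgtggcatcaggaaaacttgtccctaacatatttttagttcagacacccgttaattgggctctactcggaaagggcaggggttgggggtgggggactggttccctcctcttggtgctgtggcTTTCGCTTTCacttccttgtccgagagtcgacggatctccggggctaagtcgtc

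Reactive astrocyte genes rose in part. Of 18 tested genes 9 rose and 0 fell, with a median of 1.10. Gfap (1368353_at) was at 8.02 and 9.36 in control and at 11.72 and 11.91 in epileptogenic arrays, a rise of 3.12 ± 0.36 (adjusted p = 0.00182) that passed with any array left out. Cd44 (1368921_a_at), a hyaluronan receptor, was at 2.46 and 4.97 in control arrays and rose by 3.41 ± 0.69 (adjusted p = 0.0243), but by 1.94 without control paired A. Its control mean lay under the filter level, as did that of Hspb1, which is also in this list, and its other probe set gave 0.80 and did not pass. Cp, the copper-binding ferroxidase ceruloplasmin, rose by 2.61 ± 0.38, and its 2 other probe sets by 1.84 and 3.06. Cd44 and Cp did not pass without control paired A or either epileptogenic paired array. The glutamate transporter genes Slc1a2 and Slc1a3 had differences of 0.48 and 0.18, and Aldh1l1, a general astrocyte marker, had -0.04, and none of these passed. The list's count was 2 without control paired A, 1 without epileptogenic paired A, 5 without epileptogenic paired B and 2 without the letter. The summed signal of the list was 17298 and 16040 in control arrays and 31097 and 25145 in epileptogenic arrays.

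Cytokine signalling and the extracellular matrix changed in a few members. Of 15 genes of cytokines, chemokines and their receptors 4 rose and 0 fell, with a median of 1.00. Tgfbr1, the type I receptor of transforming growth factor beta, rose by 1.76 ± 0.18 (adjusted p = 0.00116), the inflammasome product gene Il18 by 1.65 ± 0.32, the receptor chain gene Il10rb by 1.62 ± 0.32 and the alarmin gene Il33 by 1.00 ± 0.22. Il1b, interleukin 1 beta, had 0.37, and Ccl3, a chemokine, had 2.30, and neither passed. Of 24 matrix genes 6 rose and 0 fell, with a median of 1.00. Plau (1387675_at), the urokinase protease, was at 3.67 and 4.69 in control arrays, and epileptogenic arrays were higher by 2.48 in letter A and by 4.31 in letter B. It rose by 3.40 ± 0.64 but by 2.07 without epileptogenic paired B, and its control mean lay under the filter level. Bgn, the proteoglycan biglycan, rose by 2.14 ± 0.40 and by 1.38 without epileptogenic paired A, Spp1, osteopontin, by 1.60 ± 0.36, and Adamts4, a protease that cuts proteoglycans, by 1.33 ± 0.21. No matrix gene passed without control paired A and 1 passed without epileptogenic paired A, and for cytokine genes the count was 1 without control paired A, epileptogenic paired A or epileptogenic paired B. None of the matrix or cytokine genes passed without the letter. Fibroblast and meningeal markers were higher in the same arrays, with 10 of 11 positive, a median of 1.03 and no call, although 2 passed without epileptogenic paired B and 3 without either epileptogenic unpaired array. Lum, lumican, had 2.03 ± 0.56 and Col1a1, collagen I, had 1.53 ± 0.46. Lum, Dcn, Col1a1, Col1a2 and Col3a1 are also in the matrix list, so the lists are not independent. The summed signal of these markers was 1576 and 1457 in control arrays, 2805 in epileptogenic paired A and 1663 in epileptogenic paired B, and their part in the result was not tested.

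**Figure D2:**
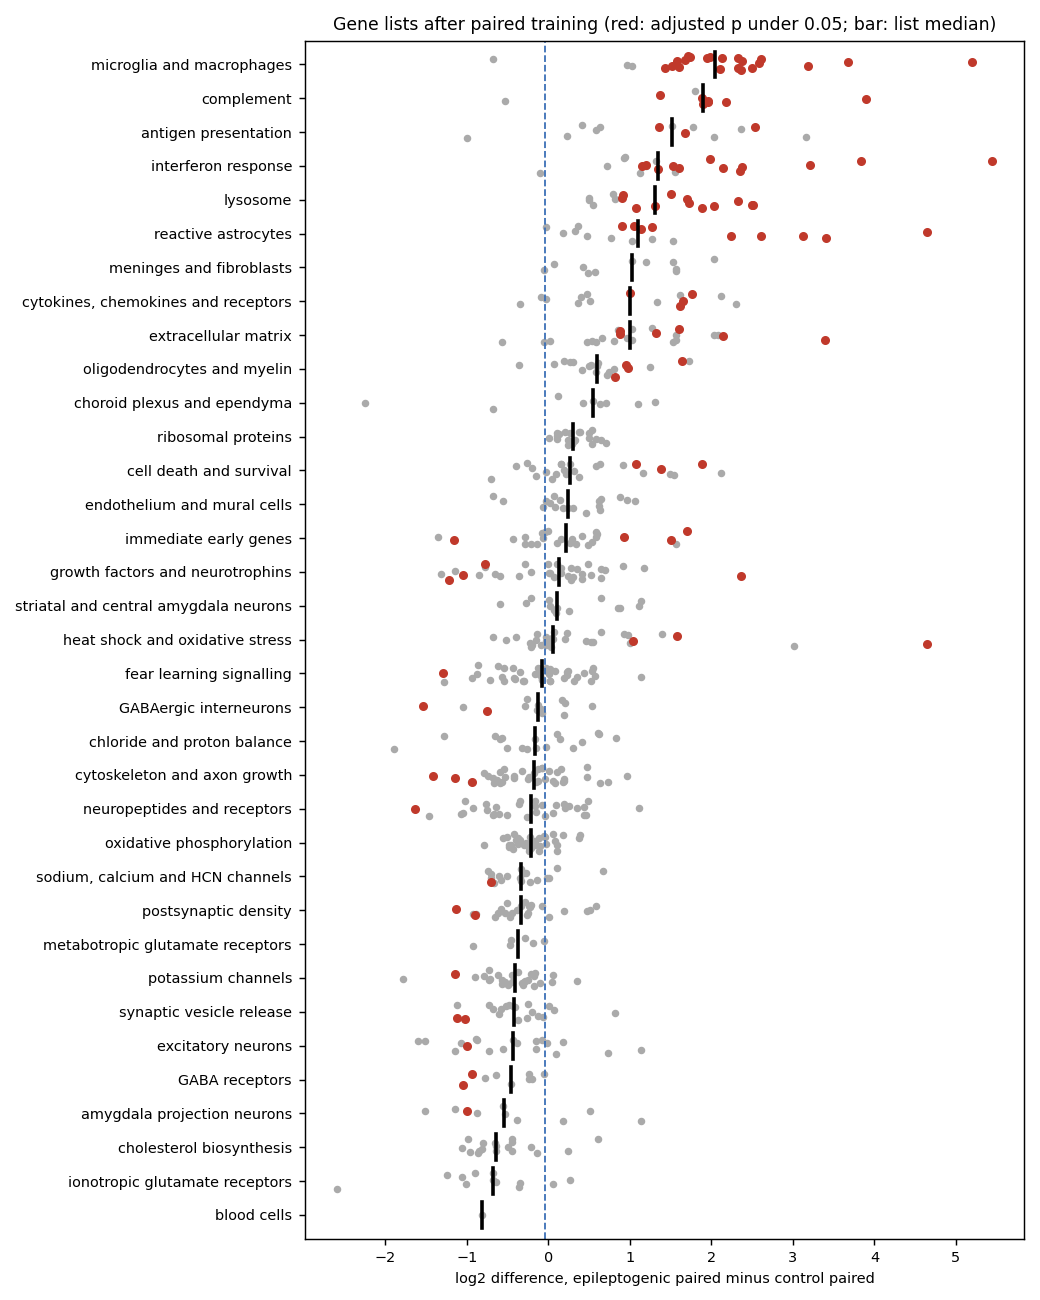
Log2 difference between epileptogenic paired and control paired arrays (horizontal axis) of each tested gene (points) in 35 gene lists (rows, ordered by median), with genes that passed in red, list medians as black bars and the median of all genes as a dashed line. Microglia (median 2.04) and complement (1.89) stand at the top, and ionotropic glutamate receptors (-0.68) and cholesterol biosynthesis (-0.64) lie low among lists in which no gene passed.

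The lists of excitatory neurons and amygdala projection neurons had medians below that of all genes and 1 call each. Of 19 genes of excitatory neurons 0 rose and 1 fell, with a median of -0.44. That is 5.3% of the list, where 5.63% of all genes passed and 1.2% passed as lower. The lower gene was Lmo3 (1385285_at), a transcriptional cofactor of amygdala projection neurons. It was at 9.71 and 10.48 in control and 8.83 and 9.38 in epileptogenic arrays, a difference of -0.99 ± 0.21 (adjusted p = 0.0306). Its other probe set gave -0.81 and did not pass. Lmo3 kept its call only without an epileptogenic unpaired array, and the list then had 3 or 4 lower genes. Slc17a6, the vesicular glutamate transporter of part of these neurons, had -1.51, and Neurod6, a transcription factor of projection neurons, had -1.14, and neither passed. Slc17a7, the main cortical vesicular glutamate transporter, had -0.38 ± 0.56, with 0.57 without epileptogenic paired B. Of 10 amygdala projection neuron markers, a list that holds some of the same genes, 1 fell, again Lmo3, and the median was -0.55. The summed signal of these markers was 12084 and 13405 in control and 12422 and 11303 in epileptogenic arrays, so these ranges overlapped. Fewer neurons and less RNA per neuron cannot be told apart in these samples.

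Inhibitory neurons showed the same mixture. Of 13 interneuron genes 0 rose and 2 fell, with a median of -0.13. That was 15.4% of the list, where 5.63% of all genes passed and 1.2% passed as lower. Beside Calb2 the gene was Calb1, the calcium-binding protein calbindin, with -0.75 ± 0.17 (adjusted p = 0.0400). Gad1, which makes GABA, was at 12.13 and 11.70 in control and at 11.95 and 11.62 in epileptogenic arrays, so the groups overlapped and the difference was -0.13 ± 0.21. Npy, an inhibitory neuropeptide, was at 8.31 and 8.05 in control and at 8.27 and 7.92 in epileptogenic arrays, with -0.08 ± 0.32. Of 9 genes of GABA receptors 0 rose and 2 fell, with a median of -0.46, and all 9 had a negative difference. The 2 calls were 22.2% of this list. Gabrb2 (1377773_at), a subunit of the ionotropic receptor, was at 10.22 and 9.94 in control and at 9.03 and 9.27 in epileptogenic arrays, with -0.93 ± 0.18 (adjusted p = 0.0212). Gabbr2, a subunit of the metabotropic receptor, had -1.05 ± 0.20 (adjusted p = 0.0185). No gene of either list passed without control paired A or without epileptogenic paired A, and none passed without the letter.

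Glutamate receptors did not reach the threshold. Of 12 ionotropic receptor genes none passed (1 did without epileptogenic paired B), with a median of -0.68, and in 8 of them the epileptogenic arrays lay below both control arrays, against 21.4% of all genes. Gria1, an AMPA receptor subunit, was at 7.56 and 7.57 in control and at 6.73 and 6.60 in epileptogenic arrays, with -0.90 ± 0.23 (adjusted p = 0.0614). Gria3, another AMPA receptor subunit, had -0.68 ± 0.18 (adjusted p = 0.0625). Of 6 metabotropic receptor and Homer genes none passed, with a median of -0.37, and Grm5 had -0.47 ± 0.23 and Grm2 -0.93 ± 0.47. Across all probe sets none of these differences passed.

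Ion channel genes gave 1 call in each of 2 lists, both lower. These were 3.6% of the potassium channel genes and 5.3% of the sodium, calcium and HCN channel genes tested. Of all genes 5.63% passed and 1.2% passed as lower, so a single call in such a list is little above or below what all genes gave. Of 28 potassium channel genes 25 had a negative difference, and 1 passed, with a median of -0.41. Kcnj6, the GIRK2 channel opened by inhibitory receptors, was at 7.10 and 8.20 in control and at 5.80 and 7.22 in epileptogenic arrays, so the groups overlapped narrowly while each letter fell, and it had -1.14 ± 0.26 (adjusted p = 0.0376). Its 2 other, dimmer probe sets had 0.42 and -0.22 and did not pass. Of 19 sodium, calcium and HCN channel genes 1 fell, with a median of -0.34. It was Scn2a, a voltage-gated sodium channel of excitatory neurons, with -0.71 ± 0.16 (adjusted p = 0.0392), at 10.10 and 10.04 in control and 9.26 and 9.47 in epileptogenic arrays. Both calls were lost without any of the 4 paired arrays and without either control unpaired array. Of 18 genes of chloride and proton balance none passed, and Car4, a carbonic anhydrase, had -1.89 ± 0.50 (adjusted p = 0.0643).

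Genes of the synapse gave 2 calls each in the presynaptic and postsynaptic lists, all lower. These were 10.0% of the vesicle release genes and 8.0% of the postsynaptic density genes tested. Of all genes 5.63% passed and 1.2% passed as lower. Of 20 genes of vesicle release Syn2 and Sv2a fell, with a median of -0.43. Syn2 (1370431_at), a synapsin that tethers vesicles, was at 9.27 and 9.80 in control and at 8.24 and 8.58 in epileptogenic arrays, with -1.12 ± 0.20 (adjusted p = 0.0142), and its 2 other probe sets gave -0.94 and -1.05 without passing. Sv2a (1368682_at), the vesicle protein bound by the antiseizure drug levetiracetam, was at 9.90 and 9.75 in control and at 8.81 and 8.78 in epileptogenic arrays, with -1.03 ± 0.18 (adjusted p = 0.0138). Of 25 genes of the postsynaptic density Ddn, dendrin, fell with -1.14 ± 0.25 (adjusted p = 0.0314) and Dlgap1, a scaffold protein, with -0.91 ± 0.17 (adjusted p = 0.0195), and the median was -0.34. In neither list did a gene pass without epileptogenic paired A or B, without control paired B or without the letter.

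Genes tied to learning and activity are of interest because all rats had been trained 3 h earlier. Of 41 genes of fear learning signalling 1 fell and 0 rose, with a median of -0.08. That is 2.4% of the list, where 5.63% of all genes passed and 1.2% passed as lower. Htr2c (1376980_at), the serotonin 2C receptor, was at 10.50 and 10.83 in control and at 9.20 and 9.54 in epileptogenic arrays. The difference was -1.30 ± 0.15 (adjusted p = 0.00186), it was -1.30 between the A arrays and -1.29 between the B arrays, and it lay between -1.32 and -1.28 with any array left out. Without the letter its adjusted p was 0.0895, and its other probe set gave -0.69 ± 0.52 and did not pass. Of 26 immediate early genes, which neurons transcribe within minutes of activity, 3 rose and 1 fell, with a median of 0.21. These calls were 15.4% of the list. Fos, an AP-1 subunit, was at 6.91 and 7.39 in control and at 8.40 and 8.91 in epileptogenic arrays, a rise of 1.51 ± 0.35 (adjusted p = 0.0400) that kept its call only in the fits without an epileptogenic unpaired array. Sgk1, a kinase induced by glucocorticoids, rose by 1.70 ± 0.35 but by 1.05 without epileptogenic paired A, and Dusp6, a phosphatase of ERK, rose by 0.93 ± 0.16. Of the 2 other probe sets of Dusp6 1 also rose (adjusted p = 0.0094) and 1 gave 0.46 without passing.

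Other activity genes differed in direction. Per1, a clock gene induced by activity, had 1.57 ± 0.40 without passing (adjusted p = 0.0579), and Klf10, Dusp1 and Gadd45b had 0.60, 0.59 and 0.58 and did not pass. Nr4a3, a nuclear receptor, was at 8.99 and 9.59 in control and at 7.68 and 8.58 in epileptogenic arrays. It fell, with -1.16 ± 0.19 (adjusted p = 0.0107), and lay between -1.31 and -1.01 with a paired array left out. Arc, which controls AMPA receptor uptake at synapses, was at 4.51 and 4.82 in control and at 5.13 and 4.11 in epileptogenic arrays, with the groups fully mixed and a difference of -0.05 ± 0.54. Its sign changed under quantile normalization and without either B array. Bdnf, a neurotrophin, was at 6.49 and 6.59 in control and at 6.04 and 6.46 in epileptogenic arrays, with -0.29 ± 0.34. Egr1, Fosb and Nr4a1 had -0.08, -0.06 and 0.11. Egr4 had the lowest difference of the list, -1.36, and did not pass. Without control paired A, control paired B or epileptogenic paired A no immediate early gene was higher, and without epileptogenic paired B only 1 was. The cyclic AMP response element TGACGTCA, to which CREB binds, was found in 2 (Jund and Dusp1) of the 20 immediate early genes with a promoter in the table, and in 525 of 27457 promoters (1.91%).

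Peptides, growth factors and growth cones contributed a few more genes. Of 32 genes of neuropeptides and their receptors Trhr fell and 0 rose, with a median of -0.21. That is 3.1% of the list, where 5.63% of all genes passed and 1.2% passed as lower. Of 34 growth factor genes 1 rose and 3 fell, with a median of 0.12. These calls were 11.8% of the list. Igf1 (1388469_at), an insulin-like growth factor that microglia make after injury, was at 5.63 and 5.51 in control and at 7.68 and 8.20 in epileptogenic arrays, a rise of 2.37 ± 0.33 (adjusted p = 0.00409). Vegfa, the vascular growth factor, was at 9.34 and 8.57 in control and at 7.83 and 7.64 in epileptogenic arrays and fell, with -1.22 ± 0.22 (adjusted p = 0.0152). The matricellular gene Ccn3 had -1.05 ± 0.26 (adjusted p = 0.0499) and lost its call with any array left out, and Fgf13, an intracellular regulator of sodium channels, had -0.78 ± 0.15 (adjusted p = 0.0225). Of 39 genes of the cytoskeleton and axon growth 0 rose and 3 fell, with a median of -0.17. The 3 genes were 7.7% of the list, beside 5.63% of all genes. Basp1, a growth cone protein, had -1.41 ± 0.33, but -0.74 without control paired A, and its other probe set had -0.04. The ephrin gene Efnb3 had -1.15 ± 0.21 and its family's receptor gene Epha5 -0.93 ± 0.20. Igf1 did not pass without epileptogenic paired A, and none of the 6 lower genes of these growth lists passed without control paired A or without epileptogenic paired A.

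No gene of the 3 metabolic and ribosomal lists passed, and 3 genes rose in each of the stress and cell death lists. No gene of cholesterol biosynthesis passed among 18, and the median was -0.64. The epileptogenic arrays lay below both control arrays in 12 of the 18, against 21.4% of all genes. Sqle, squalene epoxidase, had -0.97 ± 0.25 (adjusted p = 0.0585) and Msmo1, a sterol oxidase, -0.86 ± 0.23 (adjusted p = 0.0627), and without control paired B 3 genes of the list passed. None of 38 genes of oxidative phosphorylation passed, with a median of -0.22, and the ATP synthase genes Atp5f1d and Atp5po had -0.79 ± 0.25 and -0.50 ± 0.18. All 22 ribosomal protein genes had a positive difference with a median of 0.30, and none passed, Rplp0 having 0.70 ± 0.22 and Rpl5 0.49 ± 0.14. Of 31 genes of heat shock and oxidative stress 3 rose and 0 fell, with a median of 0.05. Beside Hspb1 they were Nfe2l2 (1367826_at), the transcription factor NRF2 of the antioxidant response, with 1.58 ± 0.20 (adjusted p = 0.00273), and the glutathione peroxidase gene Gpx1. Gpx1 had 1.03 ± 0.24 (adjusted p = 0.0419), and 0.69 without epileptogenic paired A. Of 25 genes of cell death and survival 3 rose and 0 fell, with a median of 0.26. They were Clu, the chaperone clusterin (1.38 ± 0.17; adjusted p = 0.00234), Casp4, an inflammatory caspase (1.88 ± 0.33), and Ripk1, a kinase of necroptosis (1.07 ± 0.26). Nfe2l2 and Clu passed with any array left out, and Ripk1 with none.

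Markers of other cells in or near the cut-out nuclei were read in the same way. Of 20 oligodendrocyte and myelin genes 4 rose and 0 fell, with a median of 0.60. The 4 genes were 20.0% of the list, where 5.63% of all genes passed and 4.44% passed as higher. Aspa, an enzyme of myelin lipid synthesis, rose by 1.64 ± 0.26 (adjusted p = 0.00874), Tspan2, a membrane protein of oligodendrocytes, by 0.98 ± 0.23, Cnp, a myelin enzyme, by 0.95 ± 0.20, and Bcas1, a marker of newly myelinating cells, by 0.82 ± 0.19. The other probe set of Tspan2 gave 0.38 and did not pass, and that of Cnp rose by 1.10. The summed signal of the list was 17658 and 15167 in control arrays, 18875 in epileptogenic paired B and 33921 in epileptogenic paired A, so that epileptogenic paired A stood apart. Without epileptogenic paired A no gene of the list passed, and Bcas1 had 0.50 there. A single gene of the list passed without either control paired array and without either control unpaired array. None of 19 genes of endothelium and mural cells passed, with a median of 0.25, and the tight junction gene Ocln had 1.06 ± 0.26 (adjusted p = 0.0524) and the transporter gene Slco1a4 0.61 ± 0.17.

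Markers of neighbouring tissue were uneven. Of 14 striatal and central amygdala markers none passed, with a median of 0.10, and their summed signal was 4906 and 3942 in control and 6690 and 3871 in epileptogenic arrays. Pdyn, the opioid prodynorphin, had 1.11 ± 0.33, and Prkcd, a kinase of central amygdala neurons, had 0.85 ± 0.26. Of 9 choroid plexus and ependymal markers none passed, with a median of 0.55. Ttr, transthyretin of the choroid plexus, was at 11.75 and 11.96 in control and at 8.23 and 10.99 in epileptogenic arrays, and had -2.25 ± 0.86 (adjusted p = 0.181). Foxj1, a factor of ciliated ependymal cells, had 1.10 ± 0.43. The summed signal of this list was 3768 and 4285 in control and 1076 and 2374 in epileptogenic arrays. Of 18 blood cell markers only Hbb, a haemoglobin chain, was above the filter, with -0.82 ± 0.71. The part of these cells in the results was not tested.

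**Figure D3:**
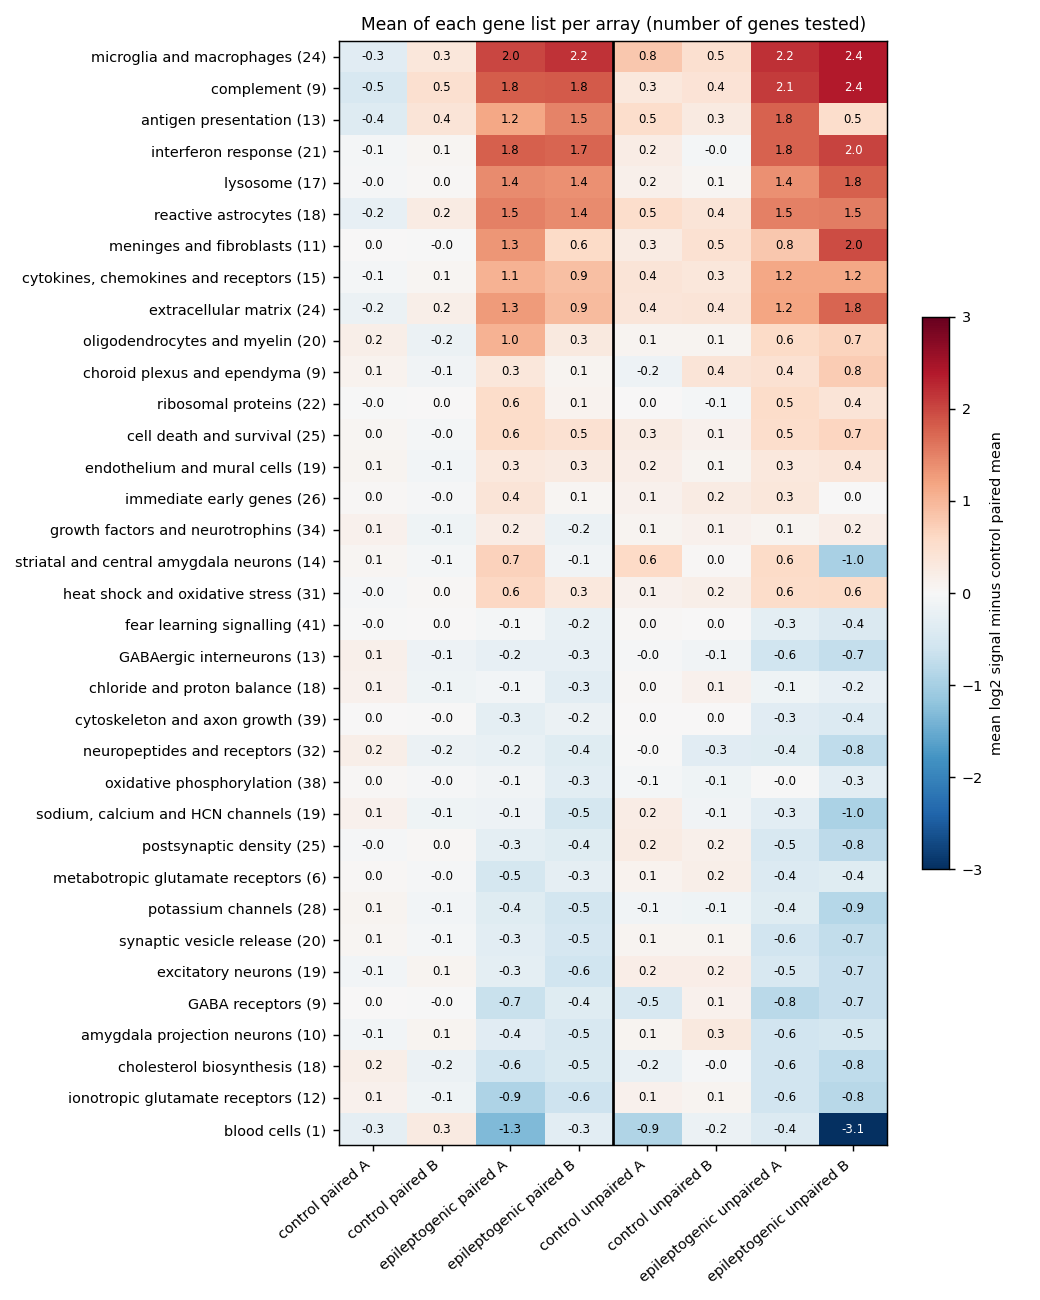
Mean log2 signal of each gene list per array, relative to the mean of the control paired arrays, for the 8 arrays (columns) and 35 lists (rows, number of tested genes in brackets, ordered by the median after paired training), with red for higher and blue for lower values. The microglia list lies between 2.00 and 2.39 in all 4 epileptogenic arrays, and the myelin list reaches 1.05 in epileptogenic paired A against 0.28 in epileptogenic paired B.

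Whether the effect of status epilepticus differed with the kind of training was tested as a difference of differences, with the unpaired groups, which share no array with the paired groups. No probe set of 18625 (0%) passed in limma, with a smallest adjusted p of 0.0978, and 1056 (5.67%) had an unadjusted p under 0.05. The median half-width of the 95% interval of this difference was 0.94 on the log2 scale, without adjustment for the number of probe sets. After adjustment differences well above that size, such as those of Nid1 and Cd244l1 given below, did not pass. The absence of calls therefore does not exclude differences of that size or larger. After unpaired training 466 genes were higher (4.5%) and 324 lower (3.13%). Of the 460 genes higher after paired training 455 had a positive difference after unpaired training and 310 (67.4% of them, and 66.5% of the genes higher after unpaired training) passed there too. Of the 124 lower genes 117 had a negative difference and 54 passed (43.5%, and 16.7% of the genes lower after unpaired training). Across the 10364 genes, which are not independent, the differences after the trainings had a Pearson correlation of 0.618. Those within letters A and B of the paired arrays had one of 0.476. The first is between differences of group means and the second between differences of single arrays, so they are unlike measures. Both comparisons share the model's estimate of the spread and of the letter.

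**Figure D4:**
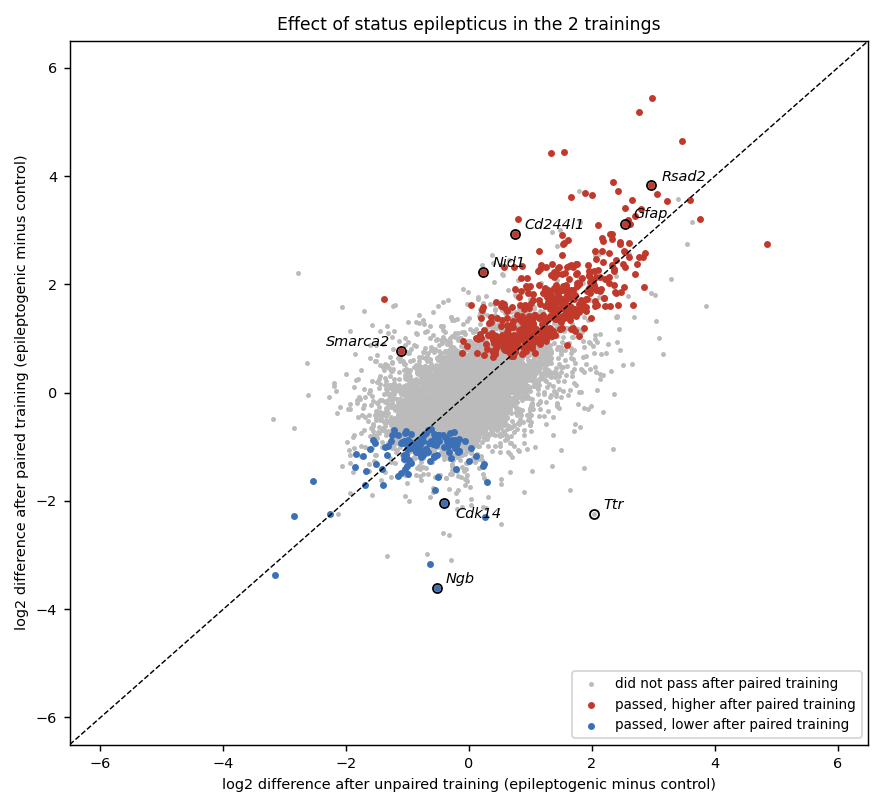
Log2 difference between epileptogenic and control arrays after unpaired training (horizontal axis) and after paired training (vertical axis) for 10364 genes (points), with genes that passed after paired training in red (higher) and blue (lower), equal values on the dashed line and 8 genes circled and named. Cd244l1 (2.93 after paired and 0.75 after unpaired training), Nid1, Ngb, Cdk14 and Ttr lie farther from the dashed line than Gfap (3.12 and 2.53).

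Genes of glia and immunity are given side by side for the trainings. Gfap had a difference of 3.12 after paired and of 2.53 after unpaired training, Ifgga2l1 of 3.54 and 3.22, Laptm5 of 2.50 and 2.83 and Fcrl2 of 3.55 and 3.60. Of the 24 microglia genes 17 were higher after unpaired training, with a median of 1.48 beside 2.04 after paired training. Relative to the control paired mean, the list's mean was 2.00 and 2.16 in epileptogenic paired and 2.19 and 2.39 in epileptogenic unpaired arrays. It was -0.35 and 0.35 in control paired and 0.82 and 0.47 in control unpaired arrays, so the controls differed more than the epileptogenic arrays. Of the 21 interferon genes 15 were higher after unpaired training, with a median of 1.87 beside 1.35. Among the lower genes Htr2c had -1.30 after paired and -0.96 after unpaired training, Gabrb2 had -0.93 and -1.10, and Nrarp had -2.24 and -2.27. In excitatory neurons 7 genes fell after unpaired training with a median of -0.75, beside 1 and -0.44 after paired training. The difference between the trainings was tested for single probe sets only and passed for none of these genes.

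Nid1 and Cd244l1 had a larger difference after paired than after unpaired training, without passing the test of the difference. Nid1 (1371518_at), the basement membrane protein nidogen 1, was at 7.60 and 7.42 in control paired, 9.83 and 9.64 in epileptogenic paired, 8.72 and 8.80 in control unpaired and 9.12 and 8.86 in epileptogenic unpaired arrays. Control paired arrays were the lowest and epileptogenic paired arrays the highest. The effect was 2.23 ± 0.18 after paired training (adjusted p = 0.000657) and 0.23 after unpaired training, and the difference of 2.00 ± 0.25 had an adjusted p of 0.120. Its other probe set had -0.04 and -0.99, a difference of 0.95 with the same sign. Smarca2, a chromatin remodelling ATPase, had effects of opposite sign, 0.77 ± 0.17 after paired and -1.10 after unpaired training, a difference of 1.87 ± 0.25 (adjusted p = 0.120), and its 2 other probe sets had -0.17 and -0.05 after paired and -1.31 and -0.82 after unpaired training. Cd244l1 (1370483_at) was at 4.33 and 4.84 in control paired, 7.52 and 7.51 in epileptogenic paired, 6.06 and 5.85 in control unpaired and 6.86 and 6.56 in epileptogenic unpaired arrays. Its effects were 2.93 and 0.75, and the difference of 2.17 ± 0.42 had an adjusted p of 0.813.

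Cdk14 had effects of -2.05 after paired and -0.40 after unpaired training, and Ngb of -3.62 and -0.52, with Ngb at 5.49 and 5.15 in control unpaired and 5.06 and 4.53 in epileptogenic unpaired arrays. Sv2a had -1.03 and 0.04, and the vesicle trafficking gene Rab26 had -1.31 ± 0.24 and 0.25. The differences of these 4 genes had an adjusted p of 0.866. Klf5, a transcription factor, had 0.10 and -1.24, and Fbxo2, a ubiquitin ligase subunit of neurons, had 0.17 and 1.71. In both genes the value after unpaired training was the larger in size, but the difference between trainings did not pass. Other probe sets of Klf5 had -0.44 and -0.12 after paired training, and -0.68 and -0.87 after unpaired training. Ttr had -2.25 and 2.04, with 7.24 in control unpaired A and 12.31 in control unpaired B, so its unpaired controls spanned most of the range. Scn7a passed the test of the difference only when control paired B was left out, and with an offset of 16 added to the signals a single unnamed probe set (1397792_at) passed.

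**Figure D5:**
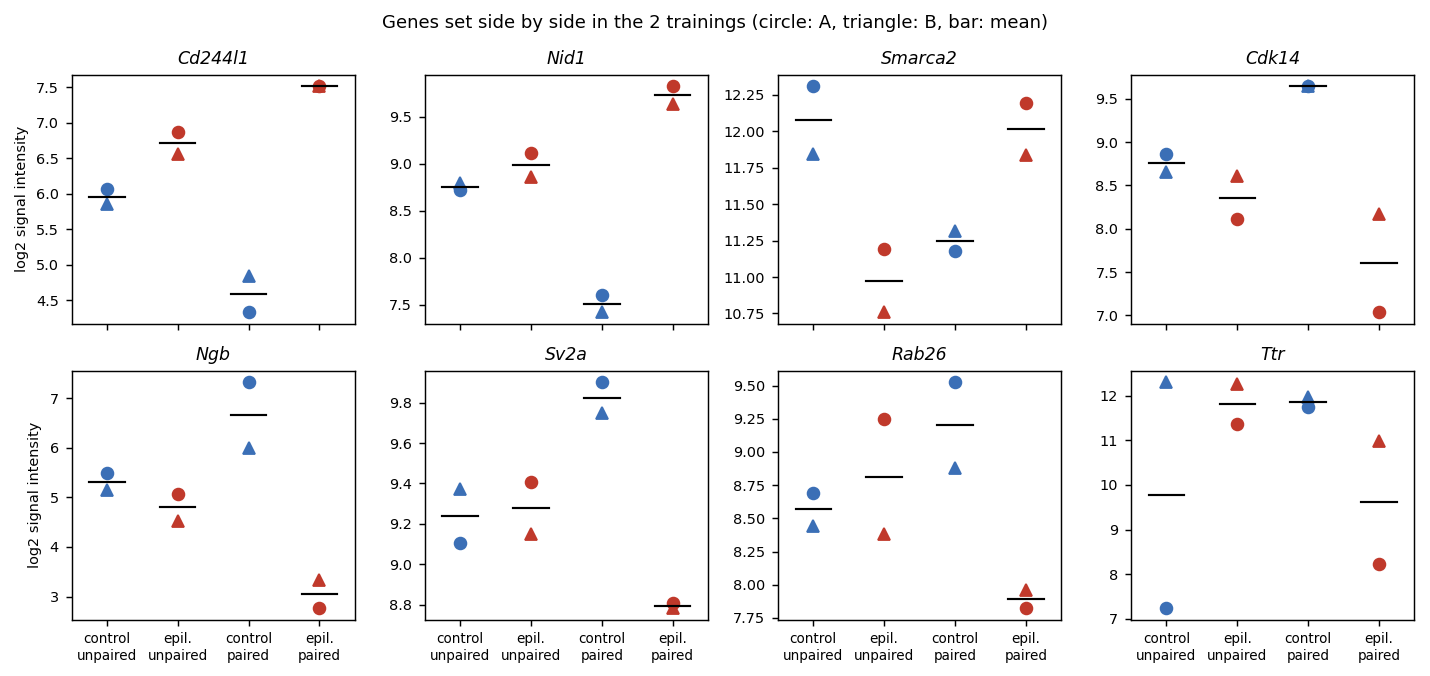
Log2 signal intensity (vertical axes) of 8 genes, chosen after their values were seen, in the 4 groups (horizontal axis) for arrays A (circles) and B (triangles), with group means as bars. In Nid1 and Cd244l1 the control paired arrays are the lowest and the epileptogenic paired arrays the highest, and Ttr spans from 7.24 to 12.31 within the control unpaired group.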

How the data were processed

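The authors deposited 1 signal intensity per probe set and array on a linear scale, made with MAS5 per the submitters' processing notes; its version and scaling target are not given in the sources used here. The deposited intensities were transformed to log2 without further normalization. All were above 0 (smallest 0.0266). The 57 control probe sets were left out, and 18625 of the other 31042 whose mean log2 signal exceeded the 40th percentile were tested. Detection calls were not used here. Of the 31042 probe sets 20826 had 1 gene symbol, 436 several and 9780 none; a gene was read by its brightest single-symbol probe set, and through the RefSeq table no symbol was updated. Differences were fitted with limma 3.58.1 (R 4.3.3) over all 8 arrays, with 4 group means, the letter and an intensity trend in the prior variance (3 residual and 6.83 prior degrees of freedom), two-sided, with Benjamini-Hochberg adjustment over the probe sets tested. The number of arrays limits the precision; an exact permutation test of 2 against 2 arrays cannot go below p = 0.333.

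Letters were treated as a pairing because same-lettered arrays deviated together from their group means (correlations of 0.321 to 0.407 over the 6 pairs of groups); no label says what they mark. The comparison and the 35 gene lists (977 entries) were chosen with earlier results of these data known. Named were the 12 largest increases and decreases that passed without overlap, the 4 largest each way whose lower group lay under the filter level, at most 4 passing genes or 2 values per list, 8 genes always given (Gfap, Cd74, Fos, Arc, Bdnf, Npy, Slc17a7, Gad1), and the 3 smallest p each way of the difference between trainings; other genes were named after their values were seen. Alternatives were no letter, quantile normalization, median centring, an offset of 16, no or a stricter filter (60th percentile), no trend, the 4 paired arrays alone, averaging the probe sets of a gene, each letter alone as values without a test, and leaving out each array. The methods texts of the labels differ in section thickness and staining, which were not used here. Figures were drawn with matplotlib 3.10.9.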

Additional observations from a re-analysis of the deposited data

How the results depend on the processing

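Counts of calls depended most on the model of the spread and on single arrays. Without the replicate letter as a block, 97 probe sets were higher and 2 lower instead of 642 and 218, and 67 and 2 named genes instead of 460 and 124. Without the intensity trend these 4 counts were all 0 (3210 probe sets had an unadjusted p under 0.05 in limma). With the filter at the 60th percentile 334 probe sets and 189 genes were lower. With single arrays left out the counts ran from 98 to 658 probe sets higher, from 3 to 294 probe sets lower, from 70 to 468 genes higher and from 3 to 170 genes lower. The share of probe set calls that were higher was 74.7%, and 98.0% without the letter, 97.5% without control paired A, 97.0% without epileptogenic paired A and 85.6% without control unpaired A. Quantile normalization (78.8%) and median centring (77.3%) moved it little, and the median of all probe sets stayed at -0.05 under each. For the difference between trainings, 1 probe set passed with the offset of 16 and from 0 to 1 with an array left out. Arc changed sign to 0.0037 under quantile normalization. With arrays left out Arc ran from -0.79 to 0.70, Npy from -0.43 to 0.26, Slc17a7 from -1.33 to 0.57 and Gad1 from -0.36 to 0.0877. Of 85 genes named for passing, 19 kept their call without epileptogenic paired A, 27 without control paired A, 46 without control paired B and 50 without epileptogenic paired B, and all 85 kept their sign. The cause of these changes was not tested, and each fit with an array left out also held fewer arrays. Where a group lay near or under the filter level, the size of the fold change depends on very dim signals.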
